A study of Homo sapiens with 24 samples.

Results

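A set of 52 genes of DNA replication was followed in A549 cells, all 52 being found by their gene symbols among the 22026 genes of the mRNA table. The set was put together from the machinery of replication: helicase, origin licensing, S phase kinases and cyclins, sliding clamp, polymerases, lagging strand enzymes, single strand binding proteins, nucleotide supply, chromatin copying and fork protection. It was chosen with earlier results of these data known, so its shares against all tested genes are no independent test. A549 is an established line grown from a human lung adenocarcinoma, an epithelial tumour. The cells received either control medium or CAF conditioned medium, CAF being an abbreviation that in this field usually stands for cancer-associated fibroblast. Polyadenylated RNA was sequenced at 3, 6, 12, 24, 48 and 72 h, with 1 library per medium and time and therefore 6 control medium and 6 CAF medium libraries. Every library is of A549 cells, and neither the makeup of the control medium nor the source and number of the conditioning cells is given in the sources used here. The 2 biological replicates that the design text mentions have no columns of their own. A single time therefore has no replicate check, and the 6 times serve as the replicates of the comparison between media. Apart from that text no source names separate cultures, so every p-value measures only how far these 12 libraries spread, and that spread may be technical.

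Before a cell divides, each replication origin is licensed: ORC, CDC6 and CDT1 load the MCM2-7 ring onto the DNA. In S phase the kinases CDC7 and cyclin E-CDK2 switch the ring on with the help of MCM10, CDC45 and the GINS complex, and polymerases held by the PCNA clamp copy both strands from nucleotides made by ribonucleotide reductase, thymidylate synthase and thymidine kinase. Many of these genes are textbook targets of the E2F transcription factors and are transcribed mostly around the G1 to S transition, so their mRNA is commonly read as a mark of proliferation in tumour lines.

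The deposited values are RPKM, read numbers divided by gene length and by the size of the library. From their smallest steps the early libraries (3, 6 and 12 h) were worked out to hold 23.9 to 29.3 M reads and the late ones (24, 48 and 72 h) 34 to 40.6 M. Depth was therefore higher at the late times in both media. The epithelial keratin genes KRT7, KRT8 and KRT18 lay between 677 and 2357 RPKM in every library. The other 3 of 6 epithelial markers were far lower, KRT19 at 1.56 to 34.1 RPKM, CDH1 at 4.68 to 40.04 RPKM and EPCAM at 0.24 to 6.46 RPKM. Of 6 alveolar type II markers 4, NKX2-1 and the surfactant gene SFTPC among them, stayed below 1 RPKM throughout, while ABCA3 lay between 4.92 and 8.91 RPKM. Fibroblast markers summed to 4.89 to 11.7 RPKM in control medium and 8.67 to 12.0 RPKM in CAF medium, with 5 of 10 below 1 RPKM in every library and COL1A2 at no more than 0.12 RPKM. The other 5 were COL1A1 at 1.37 to 5.81 RPKM, FAP at 1.67 to 4.71 RPKM, and THY1, LUM and PDGFRA at up to 2.22, 1.43 and 1 RPKM. The CAF medium library of 24 h and the control medium library of 48 h stood closest to each other of all 66 pairs of libraries, with 97.1% of tested genes within 0.5 on the log2 scale. They were separate libraries by their reads, since the chi-square per gene between them was 20.5. ID2, lower in CAF medium at 6 of 6 times, stood at 8.10 RPKM in the first and 23.7 RPKM in the second. ID1 and ATOH8, lower at 5 of 6 times, stood at 77.0 and 0.92 RPKM in the first and 164.1 and 3.09 RPKM in the second. These patterns are read by the labels, so they are no test of the labels. Whether the closeness of these libraries bears on the differences at 24 and 48 h was not tested. The counts without either time are therefore given beside the results.

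The promoters are shown first because many of these genes are known E2F targets. RefSeq promoter windows (GRCh38.p14, 250 bases before to 50 after each start) were matched by symbol for 45 of the 52 genes. An E2F-type octamer (TTTCCCGC, TTTGGCGC, TTTCGCGC or TTTGCCGC on either strand) was present in 24 of these 45, which is 53.3%. A gene counted where any of its windows held the octamer. The share was 6.89% of the 8682 tested genes with a window and 3.99% of all 27305 genes with a window. The windows below are the 170 bases before the start, read 5′ to 3′ on the strand of the gene, with the octamers in capitals. MCM6 (chr2:135876444-135876613, minus strand) is shown because it has the most matches, 4, in overlapping pairs on opposite strands, and GINS2 (chr16:85688955-85689124, minus strand), UHRF1 (chr19:4909331-4909500, plus strand) and TIPIN (chr15:66356686-66356855, minus strand) because they hold the octamer and were lower in CAF medium over the 6 times.
MCM6: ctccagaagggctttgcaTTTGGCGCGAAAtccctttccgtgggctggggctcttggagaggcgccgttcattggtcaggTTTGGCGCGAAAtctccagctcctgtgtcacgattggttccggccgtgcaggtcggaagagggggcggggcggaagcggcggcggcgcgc
GINS2: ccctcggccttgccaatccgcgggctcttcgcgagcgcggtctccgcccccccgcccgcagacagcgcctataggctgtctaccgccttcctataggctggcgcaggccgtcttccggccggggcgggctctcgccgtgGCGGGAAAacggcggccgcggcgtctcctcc
UHRF1: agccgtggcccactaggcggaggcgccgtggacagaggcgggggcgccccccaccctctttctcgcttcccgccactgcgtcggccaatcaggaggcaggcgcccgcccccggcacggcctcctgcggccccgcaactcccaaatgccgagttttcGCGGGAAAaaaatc
TIPIN: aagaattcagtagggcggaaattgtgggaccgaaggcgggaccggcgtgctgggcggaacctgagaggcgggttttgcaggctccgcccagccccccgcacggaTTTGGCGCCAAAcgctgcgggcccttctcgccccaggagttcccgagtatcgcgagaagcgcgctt

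RRM2 (chr2:10122569-10122738, plus strand) and MCM10 (chr10:13161388-13161557, plus strand), with the largest changes between media of the 52 genes, had none of these octamers in their windows. They are shown with another promoter element in capitals, the CCAAT box (CCAAT on either strand), of which the RRM2 window holds 3 and the MCM10 window 2.
RRM2: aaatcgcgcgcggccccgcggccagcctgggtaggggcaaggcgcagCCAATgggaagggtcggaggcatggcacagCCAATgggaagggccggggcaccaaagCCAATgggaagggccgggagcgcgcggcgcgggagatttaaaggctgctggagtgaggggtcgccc
MCM10: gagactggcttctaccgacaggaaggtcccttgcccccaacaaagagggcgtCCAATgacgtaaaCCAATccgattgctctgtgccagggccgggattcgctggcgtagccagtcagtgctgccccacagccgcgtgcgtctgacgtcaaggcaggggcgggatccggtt

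A CCAAT box was present in 27 of the 45 genes, 60.0%, against 43.4% of tested genes and 39.7% of all genes with a window. The cell cycle hexamer found in many mitotic promoters (TTTGAA or TTCGAA on either strand), by contrast, was present in 2 of the 45, 4.44%. It was present in 15.5% of tested genes and 19.5% of all genes with a window. The windows of the 45 genes had a GC content of 65.8 ± 7.34% (SD over genes) and those of the tested genes 64.7 ± 9.14%. Among the genes with a window, the octamer was in 18 of the 32 that were lower in CAF medium over 24 to 72 h and in 6 of the 13 that were not called, and in 9 of the 12 that were lower over the 6 times. These matches are letters in a window and no measure of binding.

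The main question was which of these genes differ between the media across the time course. Over the 6 times 14 of the 52 genes were lower in CAF medium and none higher (limma, Benjamini-Hochberg adjusted p under 0.05), where 4.13% of all tested genes were lower. Of the 52, 50 had a negative change, and their median log2 change was -0.43 against 0.00 over all tested genes. The 14 were MCM2 and MCM4 of the replicative helicase, GINS1, GINS2, GINS3 and MCM10 of its activation, ORC6 and CDC6 of licensing, the cyclin gene CCNE2, the polymerase subunit gene POLE2, RRM2 of nucleotide supply, UHRF1 of chromatin copying, and CLSPN and TIPIN of fork protection. In RNA from whole cultures, fewer cells in S phase and less RNA in each such cell cannot be told apart. All 14 calls were lost when the pair of libraries of 6 h, or that of 12 h, was left out. The fits then called 0 of the 52 lower, and 13 and 10 of all tested genes, against 497 with every pair. At an unadjusted p under 0.05 (limma) stood 32 of the 52 in either fit, against 2754 and 3015 of all 12029 tested genes. Leaving out 24, 48, 72 or 3 h gave 2, 5, 8 and 27 calls, with 52, 256, 466 and 650 over all tested genes. Where genes of low level were kept, 0 members and 0 genes in all were lower (limma; 29 members and 4744 of 22026 genes unadjusted). Where time was left out of the fit both counts were 0 too (limma; 1 member and 1691 of 12029 genes unadjusted).

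**Figure D1:**
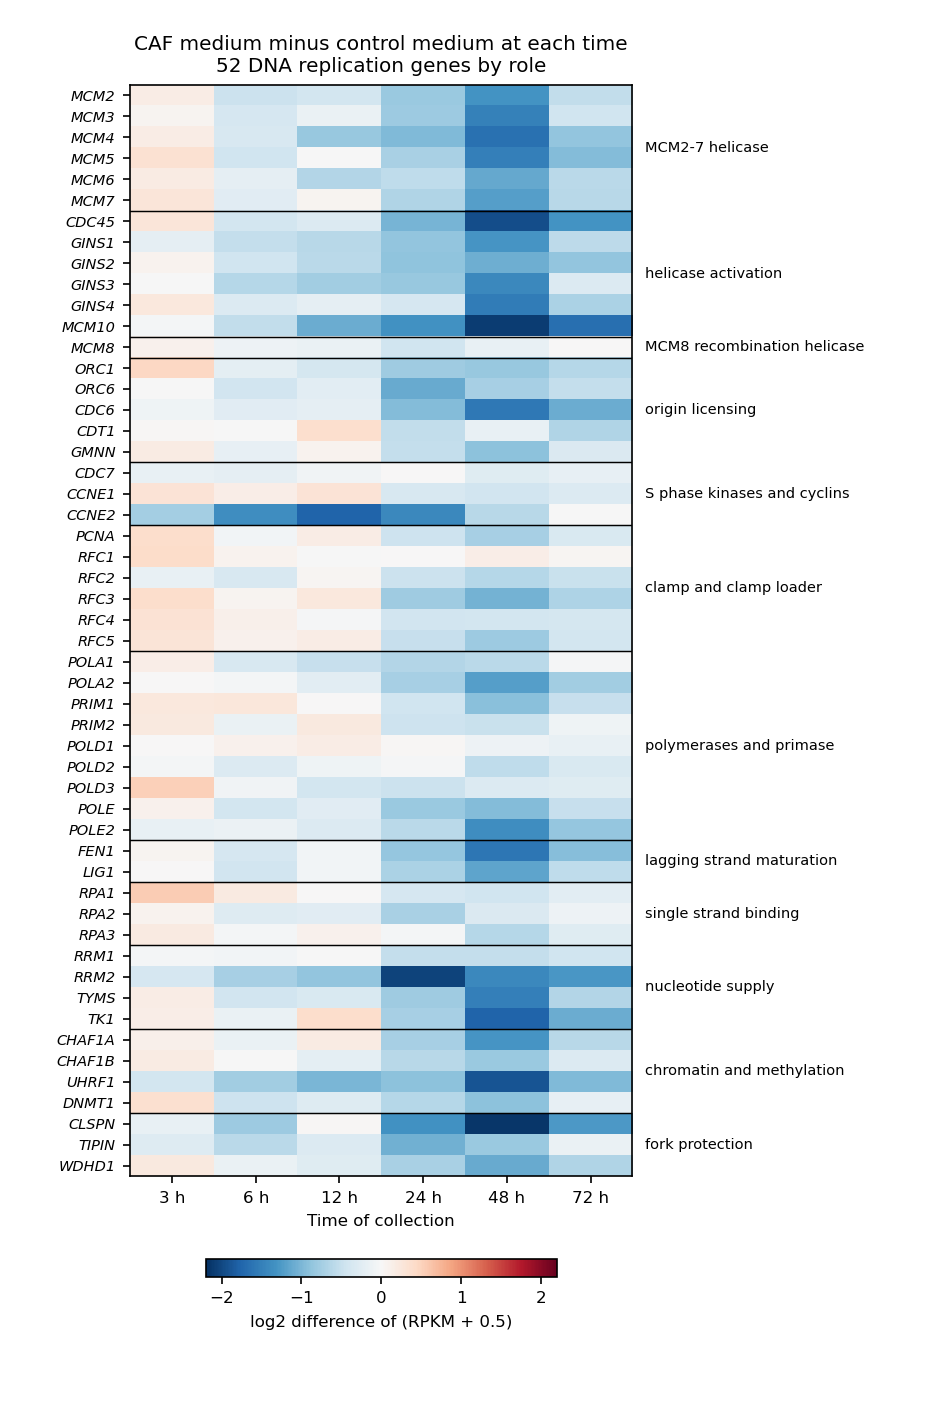
Heat map of the log2 difference of RPKM + 0.5, CAF medium minus control medium, for each of the 52 genes (rows, by role) at each time (columns), with blue for lower and red for higher in CAF medium. The deepest blues lie at 48 h, where 25 genes were at or below -1, and CCNE2 is blue from 3 to 48 h.

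The early (3 to 12 h) and late (24 to 72 h) differences were estimated in a joint model with a shared spread, so a time of one window can bear on a call in the other. Over 24 to 72 h 35 of the 52 genes were lower in CAF medium and none higher (limma adjusted p under 0.05), where 2.74% of tested genes were lower, and the median log2 change was -0.76 against -0.02 over all tested genes. At 3 to 12 h only CCNE2 and RRM2 were lower, where 1.86% of tested genes were, and the median was -0.12. The late minus early difference itself passed for RFC3 alone, where 43 of all tested genes were lower. At an unadjusted p under 0.05 (limma) stood 36 of the 52, against 1388 of all 12029 tested genes. Without the 24 h pair 8 of the 52 passed that test, and 186 of all tested genes were lower. Without the 48 h pair both counts were 0 (limma, 27 members and 823 of all 12029 tested genes unadjusted). The 35 late calls became 5 without the 48 h pair, namely CDC45, MCM10, CDC6, RRM2 and CLSPN. They were 24, 23 and 26 without 6, 24 or 72 h and 30 and 33 without 12 or 3 h. Over all tested genes the late count went from 329 to 28 without 48 h. That count was 242, 226 and 246 without 6, 24 or 72 h, and 264 and 343 without 12 or 3 h. The calls of MCM6, ORC1, RFC5, PRIM1 and RRM1 were lost without any one of 6, 24, 48 and 72 h, those of GMNN and CHAF1B without any one pair but 3 h, and those of ORC6 and POLE without 24 or 48 h. The 35 became 2, with 18 over all genes, where genes of low level were kept. At an unadjusted p under 0.05 (limma) stood 45 members and 3496 of 22026 genes there. The fit without the single times kept only a term for early against late. In it 0 members and 0 genes in all were lower late (limma; 32 members and 1523 of 12029 genes unadjusted). CDC45, MCM10, CDC6, RRM2 and CLSPN kept their late call whichever of the 6 pairs was left out. The early calls were both lost without the 6 h or the 12 h pair, that of RRM2 also without 48 h. Without 6 or 12 h, 3 and 4 members were at an unadjusted p under 0.05 (limma), against 1891 and 2187 of all 12029 tested genes. By adjusted p 4 and 0 of all tested genes were then lower, against 224 with every pair. Without the 24 h or the 48 h pair 3 and 2 of the 52 were called early, with 312 and 215 over all tested genes. The calls of CCNE2 and RRM2 were also lost where genes of low level were kept (6 members and 3797 of 22026 genes unadjusted). They were lost too without the single times in the fit (1 member and 2258 of 12029 genes unadjusted).

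**Figure D2:**
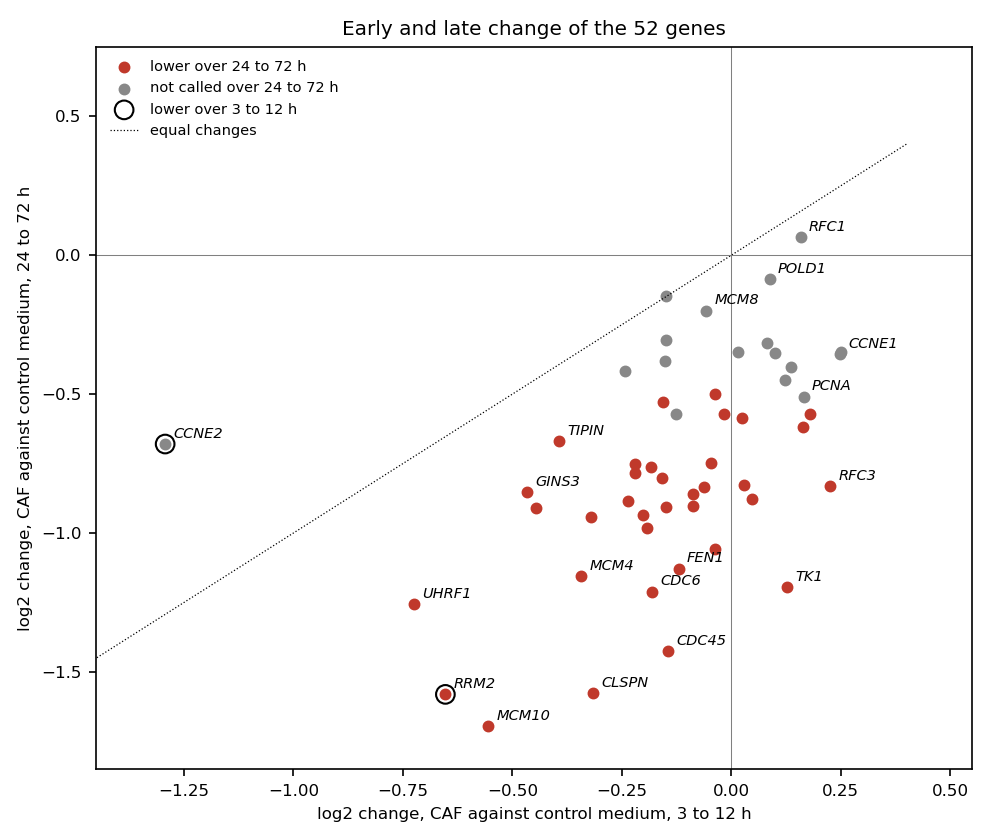
Scatter of the log2 change between media over 24 to 72 h (vertical) against that over 3 to 12 h (horizontal), 1 point per gene, red where lower over 24 to 72 h, ringed where lower over 3 to 12 h. Most points lie below the dotted line of equal changes, with CCNE2 above it at -1.29 early and -0.68 late, and RFC1 is the only gene above 0 on the vertical axis.

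The MCM2-7 ring is the motor that unwinds DNA ahead of the fork, and all 6 of its genes were lower in CAF medium over 24 to 72 h, with log2 changes of -0.75 (MCM6) to -1.16 (MCM4). At 3, 6, 12, 24, 48 and 72 h, MCM4 stood at 48.97, 54.00, 44.9, 67.2, 36.4 and 19.4 RPKM in control medium and 55.2, 41.97, 24.8, 34.1, 11.4 and 10.4 RPKM in CAF medium. CAF medium was higher at 3 h and lower at the other 5 times, and the log2 difference was lowest at 48 h (-1.63). Over the 6 times MCM4 changed by log2 -0.75 ± 0.19 (SE; limma adjusted p = 0.033). At the same times MCM2 stood at 16.6, 17.7, 13.6, 17.9, 12.6 and 6.41 RPKM in control medium and 18.8, 12.7, 10.1, 9.99, 4.80 and 4.27 RPKM in CAF medium. It too was higher at 3 h and lower at the other times, and its change over the 6 times was log2 -0.56 ± 0.16 (limma adjusted p = 0.0467). MCM3, MCM5, MCM6 and MCM7 missed the threshold over the 6 times, with log2 changes of -0.53, -0.55, -0.49 and -0.40. Their late changes were log2 -0.90, -1.06, -0.75 and -0.83 (limma adjusted p between 0.00972 and 0.0343). All 6 genes of the ring were higher in CAF medium at 3 h, by 0.07 to 0.33 on the log2 scale, in single libraries with no test. Over all tested genes the median at 3 h was 0.08, and 4832 of 12029 were lower. MCM8 is a helicase of recombination and not part of the ring. MCM8 stood at 11.4, 13.6, 12.96, 14.5, 9.92 and 9.75 RPKM in control medium and 12.2, 12.5, 11.6, 10.6, 8.79 and 9.80 RPKM in CAF medium. The log2 difference between media lay between -0.44 and 0.09 over the 6 times, and the late change was -0.20 (limma adjusted p = 0.424).

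The factors that turn the loaded ring into an active helicase were all lower late: 6 of 6 genes over 24 to 72 h, and 4 of them also over the 6 times. MCM10, which helps to open the double ring, had the largest change of the 52 genes. Its levels were 10.6, 13.1, 10.1, 14.99, 6.66 and 3.05 RPKM in control medium and 10.3, 8.82, 4.47, 5.64, 1.19 and 0.62 RPKM in CAF medium. The media were nearly equal at 3 h, and CAF medium was lower at every later time and below 1 RPKM at 72 h. Its change was log2 -1.13 ± 0.22 over the 6 times (limma adjusted p = 0.019) and -1.69 ± 0.20 at the late times (adjusted p = 0.00331). GINS1, of the ring-shaped GINS complex, stood at 24.4, 25.2, 20.9, 23.6, 11.99 and 8.18 RPKM in control medium and 21.1, 17.4, 13.5, 12.8, 4.59 and 5.33 RPKM in CAF medium. It was lower in CAF medium at 6 of 6 times. GINS2 stood at 10.6, 12.1, 10.8, 10.3, 4.21 and 2.26 RPKM in control medium and 11.1, 8.82, 6.97, 5.35, 1.73 and 1.02 RPKM in CAF medium. GINS3 stood at 6.70, 6.75, 5.21, 8.41, 3.82 and 2.61 RPKM in control medium and 6.68, 4.17, 2.87, 4.49, 1.12 and 2.01 RPKM in CAF medium. GINS2 was lower from 6 h on and GINS3 at 6 of 6 times, although its log2 difference at 3 h was only -0.0040. The changes over the 6 times were log2 -0.68 ± 0.13 for GINS1, -0.63 ± 0.14 for GINS2 and -0.66 ± 0.16 for GINS3 (limma adjusted p = 0.0174, 0.0244 and 0.0304). GINS4 and CDC45, the partner of GINS in the active helicase, passed only the late test, with log2 changes of -0.86 ± 0.20 and -1.43 ± 0.19 (limma adjusted p = 0.0384 and 0.00373). The late calls of GINS3 and GINS4 were lost without 4 of the 6 pairs, among them 6, 12 and 48 h for both.

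**Figure D3:**
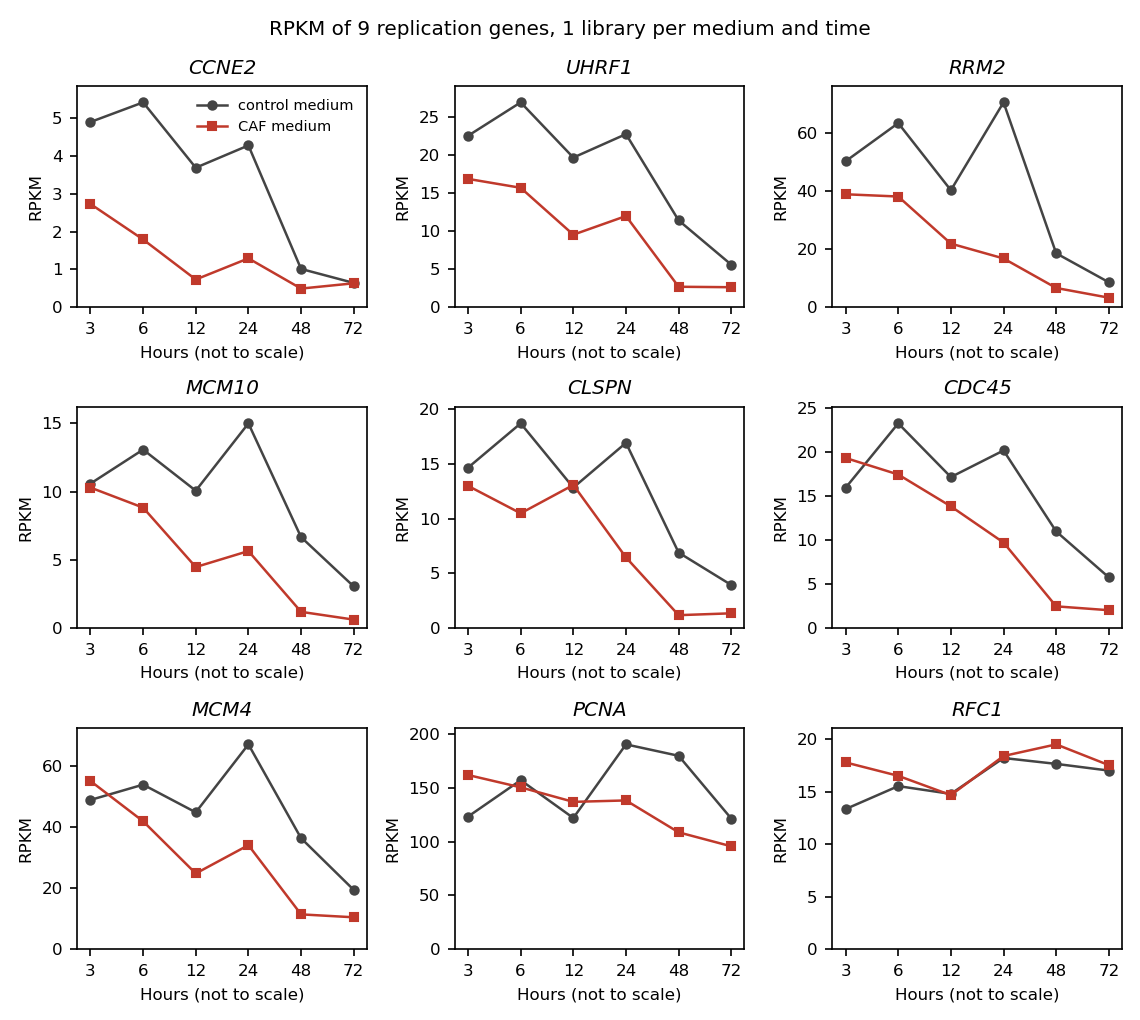
RPKM of 9 of the genes (vertical axes, each from 0) against time, with grey circles for control medium and red squares for CAF medium, 1 library each. CAF medium lies below control medium from 3 h on for CCNE2, UHRF1 and RRM2 and from 6 h on for CDC45, and RFC1 is at or above control medium at 5 of 6 times.

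Of the 5 licensing genes, ORC1, ORC6, CDC6 and GMNN were lower over 24 to 72 h, and CDT1 was not called. CDC6, which loads the MCM ring together with CDT1, stood at 23.2, 23.9, 18.00, 26.5, 13.5 and 7.04 RPKM in control medium and 21.7, 19.98, 15.6, 13.4, 4.21 and 3.02 RPKM in CAF medium. CAF medium was lower at 6 of 6 times, with log2 differences of -0.09, -0.25 and -0.20 at 3, 6 and 12 h and of -0.96, -1.57 and -1.10 from 24 h. The change over the 6 times was log2 -0.70 ± 0.18 (limma adjusted p = 0.0396), and the late change was -1.21 ± 0.14 (adjusted p = 0.00331). ORC6, a subunit of the origin recognition complex, was likewise lower at 6 of 6 times, with log2 -0.50 ± 0.13 over the 6 times (limma adjusted p = 0.0396). ORC1, its largest subunit, and GMNN, which encodes geminin, the inhibitor of CDT1, passed only the late test, at log2 -0.75 ± 0.18 and -0.58 ± 0.14 (limma adjusted p = 0.0383 and 0.0472). CDT1 was higher in CAF medium at 12 h (log2 difference 0.36) and lower at 24 and 72 h (-0.53 and -0.65).

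CCNE2, one of a pair of genes for cyclin E, the activator of CDK2 at the start of S phase, had the lowest difference of the 52 at 3 h, log2 -0.74. At 3, 6, 12, 24, 48 and 72 h it stood at 4.90, 5.42, 3.69, 4.28, 1.01 and 0.64 RPKM in control medium and 2.73, 1.79, 0.73, 1.29, 0.49 and 0.63 RPKM in CAF medium. CAF medium was lower already at 3 h, the log2 difference was lowest at 12 h (-1.77), and at 72 h the media were level. It was the only one of the 52 genes at or below -1 at 6 h. Its change was log2 -1.29 ± 0.26 over 3 to 12 h (limma adjusted p = 0.0234). It was -0.68 ± 0.26 over 24 to 72 h (limma adjusted p = 0.158) and -0.99 ± 0.20 over all 6 times (limma adjusted p = 0.0206). The early and late changes were not shown to differ (log2 0.61, limma adjusted p = 0.56). CCNE2 was also the gene with the fewest reads: its lowest value, 0.49 RPKM in CAF medium at 48 h, rests on 51 reads (95% exact Poisson interval 0.365 to 0.644 RPKM, counting error only). Its paralogue CCNE1, the other cyclin E gene, was higher in CAF medium at 3, 6 and 12 h and lower at 24, 48 and 72 h, with log2 changes of 0.25 early and -0.36 late that did not pass (limma adjusted p = 0.215 and 0.117). CDC7, the kinase that phosphorylates the MCM ring, had log2 changes of -0.15 early and late.

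The sliding clamp PCNA and its loader, the RFC complex, had 0 of 6 genes called over the 6 times. By limma 1 was at an unadjusted p under 0.05, against 3589 of all 12029 tested genes. The log2 changes of the 6 genes ran from -0.34 to 0.11. Of these RFC2, a small subunit of the loader, had the largest. It stood at 15.5, 14.8, 12.8, 16.6, 11.3 and 8.03 RPKM in control medium and 13.8, 11.4, 13.2, 11.8, 7.16 and 5.58 RPKM in CAF medium. CAF medium was higher only at 12 h, and the change over the 6 times was log2 -0.34 ± 0.10 (limma adjusted p = 0.0591). Over 24 to 72 h RFC2, RFC3 and RFC5 were lower, by log2 -0.53 ± 0.13, -0.83 ± 0.13 and -0.57 ± 0.13 (limma adjusted p = 0.045, 0.00679 and 0.0335). The RFC2 call was lost without any one of 3, 6, 24, 48 or 72 h. RFC3 was the only one of the 52 genes that passed the test of late minus early, at log2 -1.06 ± 0.19 (limma adjusted p = 0.046), where 0.357% of tested genes were lower by that test. RFC3 was higher in CAF medium at 3, 6 and 12 h (log2 differences of 0.39, 0.06 and 0.23) and lower at 24, 48 and 72 h (-0.78, -1.04 and -0.68). That call was lost when any one pair other than 24 h was left out, with adjusted p up to 0.229. PCNA itself, the most abundant of the 52 with a mean of 140.7 RPKM, had a late change of log2 -0.51 that missed the threshold (limma adjusted p = 0.0648). RFC1, the large subunit of the loader, had a late change of log2 0.07, and RFC4 one of -0.40.

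The 9 genes of the replicative polymerases and of primase, which starts each new strand with a short RNA, included 4 that were lower at 24 to 72 h and 5 that were not called. POLE and POLE2, subunits of the leading strand polymerase epsilon, were lower by log2 -0.76 ± 0.15 and -0.94 ± 0.16 (limma adjusted p = 0.0185 and 0.00875). POLA2, a subunit of polymerase alpha, and PRIM1, the catalytic subunit of primase, were lower by log2 -0.90 ± 0.14 and -0.62 ± 0.14 (limma adjusted p = 0.00625 and 0.0307). POLE2, the only one of the 9 called over the 6 times, stood at 7.12, 6.52, 5.52, 8.98, 5.43 and 2.73 RPKM in control medium and 6.27, 5.93, 4.36, 5.76, 1.80 and 1.30 RPKM in CAF medium. CAF medium was lower at 6 of 6 times, and the change over the 6 times was log2 -0.57 ± 0.16 (limma adjusted p = 0.0439). The delta polymerase subunits POLD1, POLD2 and POLD3 were not called, with late log2 changes of -0.09, -0.30 and -0.35. POLA1 and PRIM2 were not called either, at -0.42 and -0.35.

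FEN1 and LIG1, which trim and join the fragments of the lagging strand, were both lower over 24 to 72 h, by log2 -1.13 ± 0.16 and -0.80 ± 0.15 (limma adjusted p = 0.0045 and 0.0139). FEN1 stood at 33.8, 31.9, 27.9, 37.2, 19.5 and 12.8 RPKM in control medium and 35.4, 24.6, 26.9, 20.4, 6.13 and 6.43 RPKM in CAF medium. The media were close at 3 and 12 h, and the log2 difference was lowest at 48 h (-1.59). Over the 6 times its change was log2 -0.62 ± 0.19 (limma adjusted p = 0.0596). The 3 subunits of RPA, the protein that coats single-stranded DNA, were not called in either window. RPA2, with the largest change of the 3 over the 6 times, stood at 17.6, 18.02, 15.8, 21.8, 13.6 and 11.4 RPKM in control medium and 18.6, 14.7, 13.3, 13.2, 10.8 and 10.6 RPKM in CAF medium. CAF medium was lower from 6 h on, most at 24 h, and the change over the 6 times was log2 -0.27 ± 0.11 (limma adjusted p = 0.126). The late changes of RPA1, RPA2 and RPA3 were log2 -0.35, -0.38 and -0.31 (limma adjusted p between 0.161 and 0.221).

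Nucleotide supply held RRM2, the small subunit of ribonucleotide reductase, whose level is known to limit the making of deoxynucleotides. RRM2 stood at 50.1, 63.3, 40.2, 70.4, 18.5 and 8.53 RPKM in control medium and 38.8, 38.03, 21.8, 16.7, 6.57 and 3.23 RPKM in CAF medium. CAF medium was lower at 6 of 6 times, with a log2 difference of -2.04 at 24 h, when control medium was at its highest. Its change was log2 -0.65 ± 0.16 early, -1.58 ± 0.16 late and -1.12 ± 0.18 over the 6 times (limma adjusted p = 0.0441, 0.00331 and 0.0133). RRM1, the large subunit, TYMS, which makes thymidylate, and TK1, which salvages thymidine, were lower over 24 to 72 h by log2 -0.50 ± 0.12, -0.98 ± 0.18 and -1.20 ± 0.18 (limma adjusted p = 0.0372, 0.0122 and 0.00605). TK1 was higher in CAF medium at 12 h (log2 difference 0.39) and lower at 48 h (-1.77). TYMS overlaps an antisense gene and PCNA has processed copies in the genome, and how the authors counted such reads is not given in the sources used here.

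UHRF1, which reads the methylation of newly copied DNA and brings in the methyltransferase DNMT1, was the chromatin gene called over the 6 times. UHRF1 stood at 22.5, 26.9, 19.6, 22.7, 11.4 and 5.57 RPKM in control medium and 16.8, 15.7, 9.51, 11.96, 2.67 and 2.61 RPKM in CAF medium. CAF medium was lower at 6 of 6 times. Its change was log2 -0.73 ± 0.19 early (limma adjusted p = 0.0524), -1.26 ± 0.19 late (adjusted p = 0.00605) and -0.99 ± 0.16 over the 6 times (adjusted p = 0.0132). CHAF1A and CHAF1B, which place histones on new DNA, were lower over 24 to 72 h by log2 -0.88 ± 0.15 and -0.57 ± 0.14 (limma adjusted p = 0.00972 and 0.0475). DNMT1 was not called (late log2 -0.57, limma adjusted p = 0.102). Of the fork protection genes, CLSPN encodes claspin, an adaptor of the replication checkpoint. CLSPN stood at 14.7, 18.7, 12.8, 16.9, 6.90 and 3.94 RPKM in control medium and 13.00, 10.5, 13.1, 6.46, 1.18 and 1.35 RPKM in CAF medium. The media were level at 12 h, and at 48 h the log2 difference was -2.14, the lowest log2 difference of any of the 52 genes at any time. Its change was log2 -0.95 ± 0.24 over the 6 times and -1.58 ± 0.20 over 24 to 72 h (limma adjusted p = 0.0343 and 0.00366). TIPIN, a subunit of the complex that tethers polymerase and helicase, was lower by log2 -0.53 ± 0.12 over the 6 times and -0.67 ± 0.17 late (limma adjusted p = 0.0285 and 0.0491), the late call being lost without any one pair but 72 h. WDHD1, which links polymerase alpha to the helicase, passed only the late test at log2 -0.83 ± 0.14 (limma adjusted p = 0.00972).

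By single times, with no replicate, the genes went from slightly higher to lower in CAF medium. Of the 12029 tested genes 4832, 5501, 5906, 5407, 6742 and 7206 were lower at the 6 times in order. Their medians were 0.08, 0.04, 0.01, 0.04, -0.06 and -0.05 on the log2 scale, so the median of all tested genes was above 0 at 3 h too. At 3 h 15 of 52 were lower, the median difference was 0.13 on the log2 scale and none was at or below -1, against 0.981% of tested genes. At 6 h 44 were lower (median -0.25) and 1, CCNE2, was at or below -1, against 0.973%. At 12 h 36 were lower (median -0.17) and 3, CCNE2, MCM10 and UHRF1, were at or below -1, against 1.33%. At 24 h 49 were lower (median -0.70) and 7 were at or below -1 (0.707% of tested genes), led by RRM2. At 48 h 51 were lower (median -0.94) and 25 were at or below -1 (3.17%), RFC1 being the only gene that was not lower. At 72 h 50 were lower (median -0.52) and 6, CDC45, MCM10, CDC6, RRM2, TK1 and CLSPN, were at or below -1 (0.757%). The 12 genes lower at 6 of 6 times were GINS1, GINS3, MCM10, ORC6, CDC6, CCNE2, POLD2, POLE2, RRM1, RRM2, UHRF1 and TIPIN, against 7.81% of tested genes, and 48 of the 52 were lower at 24, 48 and 72 h, against 26.4%. The lowest difference lay at 48 h for 40 of the genes, at 24 h for 8, among them RRM2, ORC6 and TIPIN, and at 12 h for CCNE2.

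The levels also changed over the time course that both media share. A fitted slope on log2 of the hours was negative and passed for 41 of the 52 genes and positive for none (limma adjusted p under 0.05), where 13.3% of tested genes fell with time. Of the 12029 tested genes 2532 rose with time. The 2 libraries of a time are not independent here, so these p-values can be too small. The steepest was RRM2, which fell by 0.61 ± 0.10 on the log2 scale per doubling of the hours, followed by CLSPN, GINS2 and MCM10 (-0.54, -0.53 and -0.50). The genes with no call were RFC1, RFC5, POLA1, POLD1, POLD3, MCM8, CCNE1, CDC7, PCNA, RPA1 and RPA3. Of the 35 genes lower in CAF medium at 24 to 72 h, 34 also fell with time, RFC5 being the exception. Without the 72, 48 or 24 h pair 21, 38 and 44 of the 52 were called, with 521, 1029 and 1700 over all tested genes. In control medium alone 12 genes passed, and in CAF medium alone 40, with 6 libraries each. Over all tested genes 716 and 623 fell there.

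The course of the 52 genes differed in shape between media, as described from single libraries. In control medium the median level changed on the log2 scale by 0.18 from 3 to 6 h, -0.26 to 12 h, 0.33 to 24 h, -0.59 to 48 h and -0.49 to 72 h, with 49 of 52 genes higher at 24 than at 12 h. In CAF medium every step of the median was downward: -0.16, -0.20, -0.12, -0.87 and -0.10. From 24 to 72 h all 52 genes were lower at the end in both media. Set against the control libraries of other times, the CAF medium library of 24 h lay nearest to control medium at 48 h, with a median difference of -0.07 and all 52 genes within 0.5 on the log2 scale, as were 97.1% of all tested genes. The CAF medium libraries of 48 and 72 h lay below every control library, including that of 72 h, with medians of -0.35 and -0.52 against it.

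**Figure D4:**
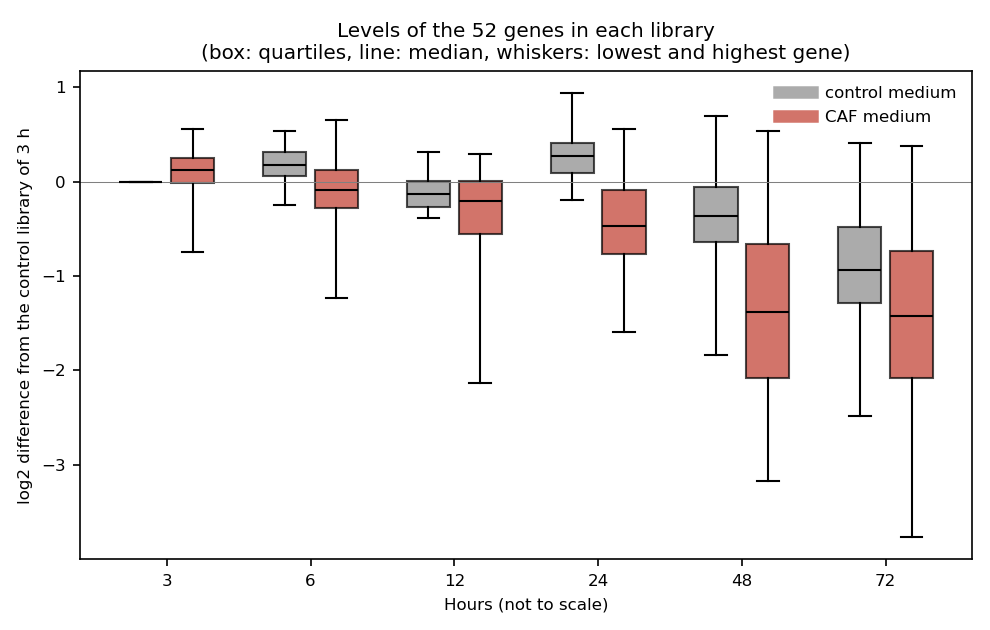
Box plots of the log2 level of the 52 genes in each library relative to the control medium library of 3 h (vertical), by time (horizontal), grey for control and red for CAF medium. Boxes span the quartiles, whiskers the lowest and highest gene; the control boxes rise at 24 h before they fall, while the CAF medium medians go down at each step after 3 h.

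Other genes of replication, taken from a list of 60 of which 57 were tested, had a median log2 change of -0.17 over the 6 times. In that comparison DSCC1 of an alternative clamp loader, POLE3 of polymerase epsilon and UMPS of pyrimidine synthesis were lower (log2 -0.58, -0.47 and -0.46). RRM2B, the p53-inducible small subunit of ribonucleotide reductase, was higher (log2 0.42 ± 0.11, limma adjusted p = 0.0343). These 3 lower and 1 higher of the 57 stand against 497 lower (4.13%) and 729 higher of all 12029 tested genes. RRM2B, the counterpart of RRM2, stood at 13.5 to 24.98 RPKM in control medium and 16.0 to 47.4 RPKM in CAF medium. Over 24 to 72 h 9 of the 57 were called lower and 1, RRM2B, higher (limma adjusted p under 0.05), with a median of -0.26. Of all tested genes 2.74% were lower and 163 were higher late. Without the single times in the fit 0 were lower. The 9 were RECQL4 (log2 -1.04) and TICRR (-0.87), which act in helicase activation with DBF4B (-0.62), the fork protein TIMELESS (-0.92), the histone chaperones ASF1B (-0.86) and NASP (-0.59), TOP2A (-0.85), DSCC1 (-0.84) and KIAA0101 (-0.82), a PCNA partner. TIMELESS forms a complex with TIPIN. None of the 6 other origin loading genes was called late (limma; 1 at an unadjusted p under 0.05, against 2561 of all 12029 tested genes). At 3 to 12 h 0 of the 57 were called (limma; 9 unadjusted, against 3034 of all 12029 tested genes). RECQL4, TICRR, TOP2A and KIAA0101 passed the test of late minus early (log2 -1.08, -1.15, -1.18 and -1.20). Those late minus early calls were lost without the pair of 3, 6, 12 or 48 h, where 0 of all tested genes were lower by that test.

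Mitosis genes, which act after replication is complete, gave other medians by time. The median difference over 22 genes was 0.33, -0.09, 0.23, -0.72, -1.18 and -1.23 on the log2 scale at the 6 times in order, against 0.13, -0.25, -0.17, -0.70, -0.94 and -0.52 for the replication genes. Over 24 to 72 h 21 of the 22 were lower (limma adjusted p under 0.05), led by CENPF, BIRC5, KIF20A and NDC80 (log2 -1.22, -1.20, -1.18 and -1.18). The other 17 were PLK1, CCNA2, CCNB1, TTK, KIF11, CENPE, BUB1B, UBE2C, CCNB2, NUF2, CDC20, KIF23, AURKB, TPX2, BUB1, AURKA and CDK1, at log2 -1.17 to -0.77. PTTG1 was not called (log2 -0.48, limma adjusted p = 0.153). Of all tested genes 2.74%, 329 in number, were lower late, and 28 were without the 48 h pair. The count over all genes was 18 where genes of low level were kept, fewer than the 21 called here. It was 0 without the single times in the fit, so all 21 calls were lost there. Over 3 to 12 h only KIF23, a kinesin of cytokinesis, was lower (log2 -0.50 ± 0.12, adjusted p = 0.0388), and 4 of the 22 had a negative change. Of all tested genes 1.86% were lower early. The late change was below the early one in all 22, and 9 passed the test of that difference (limma adjusted p under 0.05). They were KIF20A (log2 -1.53 ± 0.21, adjusted p = 0.0364), CENPF (-1.46), BIRC5 (-1.37), AURKB (-1.33), CCNB2 (-1.32), NDC80 (-1.30), NUF2 (-1.27), CCNB1 (-1.13) and TPX2 (-1.02). All 9 calls were lost without the pair of 3, 6, 12 or 48 h, where 0 of all tested genes were lower by that test. That count was 1 without 72 h, and 0 where genes of low level were kept or the single times were left out of the fit. CCNA2, the cyclin of S phase and G2, was lower over the 6 times at log2 -0.66, with KIF23 (-0.71) and UBE2C (-0.61). Against these 3 of 22, 4.13% of all tested genes were lower over the 6 times.

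**Figure D5:**
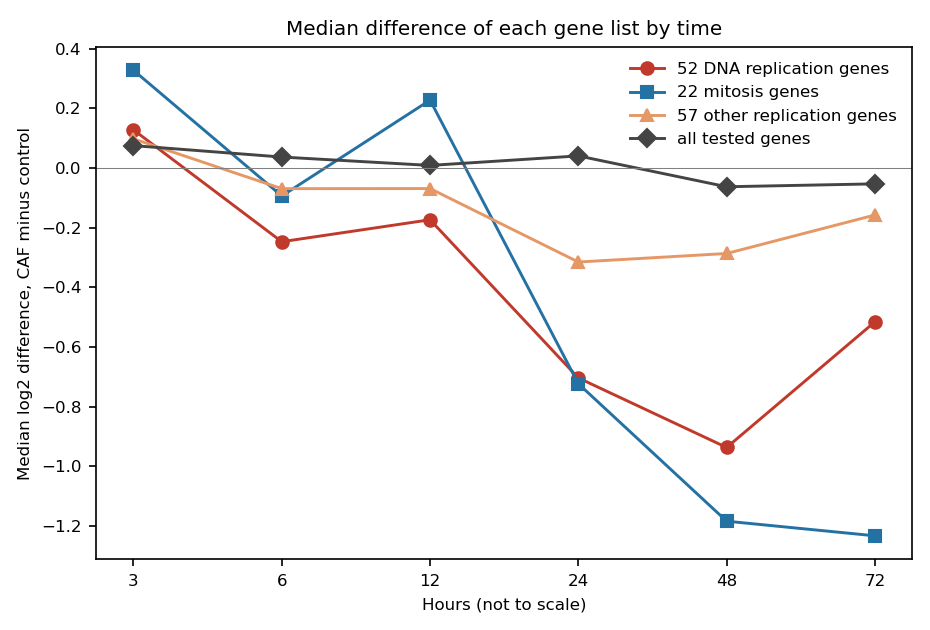
Median log2 difference of RPKM + 0.5, CAF medium minus control medium (vertical), at each time (horizontal) for the 52 replication genes, 22 mitosis genes, 57 other replication genes and all tested genes. The replication median is lowest at 48 h (-0.94) and the mitosis median at 72 h (-1.23), while the median of all tested genes stays between -0.06 and 0.08.

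Among 28 tested regulators of the cell cycle, the E2F family member E2F8, the pocket protein gene RBL1, CDK6, cyclin D1 (CCND1) and the phosphatase gene CDC25A were lower over the 6 times (log2 -0.60, -0.60, -0.46, -0.35 and -0.58; limma adjusted p under 0.05). The CDK inhibitor genes CDKN1C (p57), CDKN1B (p27) and CDKN2D (p19) were higher, by log2 1.24 ± 0.25, 0.55 ± 0.14 and 0.60 ± 0.16 (limma adjusted p = 0.0194, 0.0354 and 0.0427). The inhibitor genes CDKN1A and CDKN2C were not called, at log2 0.23 and -0.08 (limma adjusted p = 0.294 and 0.745). These 5 lower and 3 higher of the 28 stand against 497 lower (4.13%) and 729 higher of all 12029 tested genes. At 3, 6, 12, 24, 48 and 72 h CDKN1B stood at 8.23, 9.61, 12.1, 14.3, 24.2 and 35.2 RPKM in control medium and 19.4, 16.2, 11.97, 18.9, 41.2 and 42.7 RPKM in CAF medium. The media were level at 12 h, and CAF medium was higher at the other 5 times. Over 24 to 72 h the transcription factor genes MYBL2 (log2 -1.67), FOXM1 (-1.14), E2F1 (-0.89), E2F7 (-0.86) and E2F8 (-0.82), with RBL1 (-0.80), were lower (limma adjusted p under 0.05). Here too 2.74% of all tested genes were lower, and 0 were without the single times in the fit. None of the 28 passed as higher late, although 8 had a positive change, CDKN1C the largest (log2 1.24, limma adjusted p = 0.077). MYBL2 alone passed for late minus early (log2 -1.75, limma adjusted p = 0.0364). That call too was lost without the pair of 3, 6, 12 or 48 h, where 0 of all tested genes were lower by that test. At 3 to 12 h CCND1 was lower (log2 -0.49), and CDKN2D (0.94) and TFDP2 (0.54), a partner of the E2F factors, were higher (limma adjusted p = 0.0451, 0.0215 and 0.0408). Of all tested genes 224 were lower and 453 higher early.

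With time, all 22 mitosis genes fell (limma adjusted p under 0.05), with slopes of -0.18 (PTTG1) to -0.44 (BIRC5) on the log2 scale per doubling of the hours. Of all 12029 tested genes 13.3% fell, 1603 in number, and 2532 rose. Of the 57 other replication genes 24 fell, with slopes of -0.096 (RNASEH2B) to -0.36 (RECQL4): DBF4, DBF4B, TOPBP1, RECQL4, TICRR, MTBP, CHTF18, DSCC1, ATAD5, KIAA0101, POLE3, POLE4, TIMELESS, ATRIP, CHEK1, RNASEH2A, RNASEH2B, RNASEH2C, TOP2A, ASF1B, NASP, SLBP, DTYMK and DCK. RRM2B, POLK and POLD4 rose (0.23, 0.13 and 0.12). Of the 28 regulators 13 fell, with slopes of -0.14 (LIN54) to -0.63 (MYBL2): E2F1, E2F7, E2F8, RBL1, TFDP1, MYBL2, FOXM1, LIN9, LIN54, CDKN2C, CDK2, CDK6 and CDC25A. CDKN1C, CDKN1B, RBL2 and CDKN1A rose (0.39, 0.36, 0.21 and 0.20).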

How the data were processed

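Polyadenylated RNA of A549 cells was sequenced in 12 libraries, 1 per medium and time. Per the labels' protocols the libraries were directional and read in pairs. The values are RPKM, deposited by the authors with the length of each gene model, and the submitters' processing notes name TopHat2, edgeR and hg19. Versions, the gene annotation, the use of strand and the joining of the 2 biological replicates stay not given in the sources used here. No value column was without a sample (0 such columns). The small RNA libraries were not used, since the members are mRNA genes.

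RPKM were tested as log2(RPKM + 0.5), which understates changes of low genes, in the genes, 12029 in all, whose mean reached 1 RPKM. All 52 members passed. limma 3.58.1 in R 4.3.3 (lmFit, eBayes with a trend) gave two-sided tests, with Benjamini-Hochberg adjustment over every gene tested and a threshold of 0.05. The model of the 6 times had time as its factor (5 residual degrees of freedom). Early effect, late effect and their difference came from a joint model (4), and the slope on log2 hours had a medium term (9). Libraries are paired by the time in their labels. The deviations of the 2 libraries of a time from their medium means correlated at 0.236 to 0.766 in all 6 pairs. The tests were tried on simulated data first. Depth came from gene models under 400 bases, where 100% of 66 to 107 low values per library were whole reads within 0.1 read. Of the members, 49 had at least 100 reads in every library.

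Values in every library are given for members past 0.05 over the 6 times, at most 12 by size of change, and for the member of each role with the largest such change. Members past 0.05 in the early, late or difference test are named with their change, and genes past 0.05 of the other replication, mitosis and regulator lists are named, some with only the range of their changes. Cell type markers are given as levels. The members and lists were chosen with earlier results of these data known. Promoter sequences are RefSeq's, from GRCh38.p14, and the others have no coordinates because no genome of the authors' build was used. Alternatives were other pseudocounts, filters, scalings, no term for the single times and leaving out each time.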

Additional observations from a re-analysis of the deposited data

Results flagged for a closer look

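Among the 104 groups formed by each gene and medium, 2 held a library far from the other 5. The limit is made for replicates of a single level, where chance alone puts about 1 group in 20 past it. Each group here is a time course, so that rate does not apply. CDT1 in control medium stood at 2.27 RPKM at 72 h, with the nearest other value at 4.75 RPKM, so that the gap took a share of 0.633 of the group's range. POLD2 in control medium stood at 19.9 RPKM at 72 h, with the nearest other value at 25.4 RPKM and a share of 0.703. RFC3, of the clamp loader, is listed here because its late and early differences between media differed by log2 -1.06 (limma).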

How the results depend on the processing

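The counts of members lower in CAF medium were 14 over the 6 times, 2 early, 35 late, 1 for late minus early and 41 with time. Both other pseudocounts kept each of these within 1.5 times, and members at or below -1 at 72 h went from 6 to 10 with a pseudocount of 0.1. With no filter on low values the counts were 0, 0, 2 and 0 for the first 4 and 39 with time, and over all genes 0, 0, 18 and 0 against 497, 224, 329 and 43. With a minimum mean of 3 RPKM late minus early gave 4. Median centring gave 22 over the 6 times and 0 for late minus early, and quantile normalization gave 1 early and 4 for late minus early. Without the replicate block, that is without the single times in the fit, 0 members were lower in each of the 4 tests of medium. Over all genes the counts were 0, 3, 0 and 0. The joint model of early and late effects then kept a term for early against late. Fitted in control medium alone, 12 members and 716 genes fell with time, and in CAF medium alone 40 and 623. Leaving out each time in turn gave 0 to 27 members over the 6 times (10 to 650 genes), 0 to 3 early (0 to 312), 5 to 33 late (28 to 343), 0 to 8 for late minus early (0 to 186) and 21 to 44 with time (521 to 1700). No call changed sign. Uncalled changes near 0 that did were POLD1 over the 6 times (-0.013 by median centring, -0.012 by quantile normalization) and, early, MCM7 (-0.013), GMNN (-0.018) and POLD3 (-0.026) by median centring and POLD3 (-0.012) by quantile normalization. With a time left out these ranged, over the 6 times, as POLD1 -0.033 to 0.035, CCNE1 -0.13 to 0.020 and RPA1 -0.17 to 0.028, and, early, as MCM7 -0.093 to 0.16, GMNN -0.057 to 0.13, POLD3 -0.24 to 0.23, MCM5 -0.22 to 0.16, GINS4 -0.25 to 0.021, ORC1 -0.30 to 0.12, FEN1 -0.21 to 0.0049, DNMT1 -0.37 to 0.041, TK1 -0.0068 to 0.27, CHAF1A -0.017 to 0.15, CHAF1B -0.11 to 0.088 and WDHD1 -0.20 to 0.036. The cause of these shifts was not tested. Times were left out for the 52 genes and for the counts over all genes, not for the other lists. Where a count over all genes was 0, no gene of those lists was called lower. With 1 library per medium and time, differences at a single time have no error, and 51 reads of CCNE2 set the lowest precision.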
